A study of Homo sapiens with 6 samples.

Results

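Of the matrix metalloproteinase system, 10 genes were followed in SKOV3 ovarian cancer cells: the proteases MMP1, MMP2, MMP7, MMP11, MMP14 and ADAM17, and the protease inhibitors TIMP1, TIMP2, TIMP3 and RECK. The members were all probe sets that the platform annotation assigns to 1 of these 10 symbols alone, which gave 29 of 41091 probe sets with a single gene (16 for the 6 proteases and 13 for the 4 inhibitors). They stand for 10 of 19775 genes. SKOV3, an established human line labelled as high grade serous ovarian cancer, received a miR21 precursor (5 nM, 3 arrays) or a negative control precursor (3 arrays) by transfection, and RNA was taken after 24 h in the same medium in both groups. The study asked, per its title, how miR-21 brought in by stromal exosomes bears on taxol resistance and the apoptosis gene APAF1. Both groups were transfected, so a difference sets one precursor against the other, and the mature miRNA itself was not measured.

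Matrix metalloproteinases are zinc-dependent enzymes that are made as inactive proenzymes and cut collagens, other matrix proteins and cell surface proteins once their prodomain is removed. ADAM17, a relative anchored in the membrane, releases the ectodomains of cytokines and growth factors such as TNF and EGF receptor ligands. TIMPs bind the active site of these enzymes, and RECK is a membrane-anchored inhibitor. In tumours these enzymes and inhibitors are studied for their part in invasion. TIMP3 and RECK are reported targets of miR-21, which guides repression through pairing of its seed, the bases 2 to 8, with messenger RNA.

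The guide strand is shown because the seed in capitals defines which messages it can pair with, and the hairpin because the mature strand, in capitals there, is cut from it. Of 2545 mature human miRNAs in the RefSeq table (GRCh38.p14), 2 carry this seed, miR-21-5p (chr17:59841273-59841294, plus strand) and miR-590-5p (chr7:74191213-74191234, plus strand). A message that pairs with the whole seed holds the letters AUAAGCU. Sites in the messages of the members were not analysed here.
hsa-miR-21-5p: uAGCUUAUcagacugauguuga
hsa-miR-590-5p: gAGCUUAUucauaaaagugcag
MIR21 hairpin: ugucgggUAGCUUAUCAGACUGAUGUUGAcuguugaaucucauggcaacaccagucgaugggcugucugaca

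MMP1 and ADAM17 had higher signals on the miR21 arrays in every replicate number, TIMP2 had lower signals on its brightest probe set, and RECK had lower signals on its brightest probe set without separation of the groups. TIMP3 lay too low to be tested. None of the 9 tested members passed the test. Each array read RNA pooled over a dish, so a change in the share of cells that express a gene and a change per cell cannot be told apart. Values are MAS5 signals, a linear brightness per probe set that the authors scaled to the same trimmed mean on each array. Each gene is given by its probe set of highest mean signal unless stated, and genes with a mean log2 signal under 6.03 (a signal of 65.5) were not tested. Differences are miR21 minus control on the log2 scale.

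The labelled line was checked on marker genes. All 6 epithelial and SKOV3 markers (KRT7, KRT8, KRT18, KRT19, ERBB2 and PAX8) were above the filter, with summed signals of 51319 to 88002 on the miR21 arrays and 47308 to 106041 on the control arrays. Of 5 fibroblast markers 2 were above it (summed signals of 310 to 1106 on the miR21 arrays and 361 to 958 on the control arrays), of 4 leukocyte markers 0 (25.1 to 166 and 76.0 to 250), and of 4 endothelial markers 1 (76.0 to 567 and 91.7 to 729). The arrays of replicate number 1 stand apart in both groups: their median log2 signal over named probe sets was 7.22 (miR21) and 7.32 (control), against 6.29 and 6.35 on the other miR21 arrays and 6.39 and 6.41 on the other control arrays. Same-number arrays shared their deviations from the mean of each group (correlations of 0.899, 0.638 and 0.635). Results of a second fit, in which the replicate number is a block, are therefore given as well. Numbers 2 and 3 also correlated with each other across the groups (0.411 and 0.283), while number 1 against the others gave -0.754 to -0.623. With number 1 apart in both groups, these values do not settle how numbers 2 and 3 pair. The differences miR21 minus control over all tested genes were less spread in number 3. Their SDs were 0.66, 0.71 and 0.43 within numbers 1, 2 and 3. Smaller differences in replicate 3, here and below, are to be read beside this, and its cause was not tested. Over 12206 tested genes, the adjusted p of limma was under 0.05 for 0 (0%), with 298 genes (2.44%) at an unadjusted p under 0.05. With the block it called 4 (0.0328%), with 2451 (20.1%) at an unadjusted p under 0.05. The counts of called members were 0 of 9 in both fits, so the share of the members called was not above that of all genes. Whether replicates are separate cultures is not stated in the labels; if they are not, a p-value here reflects technical spread alone.

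**Figure D1:**
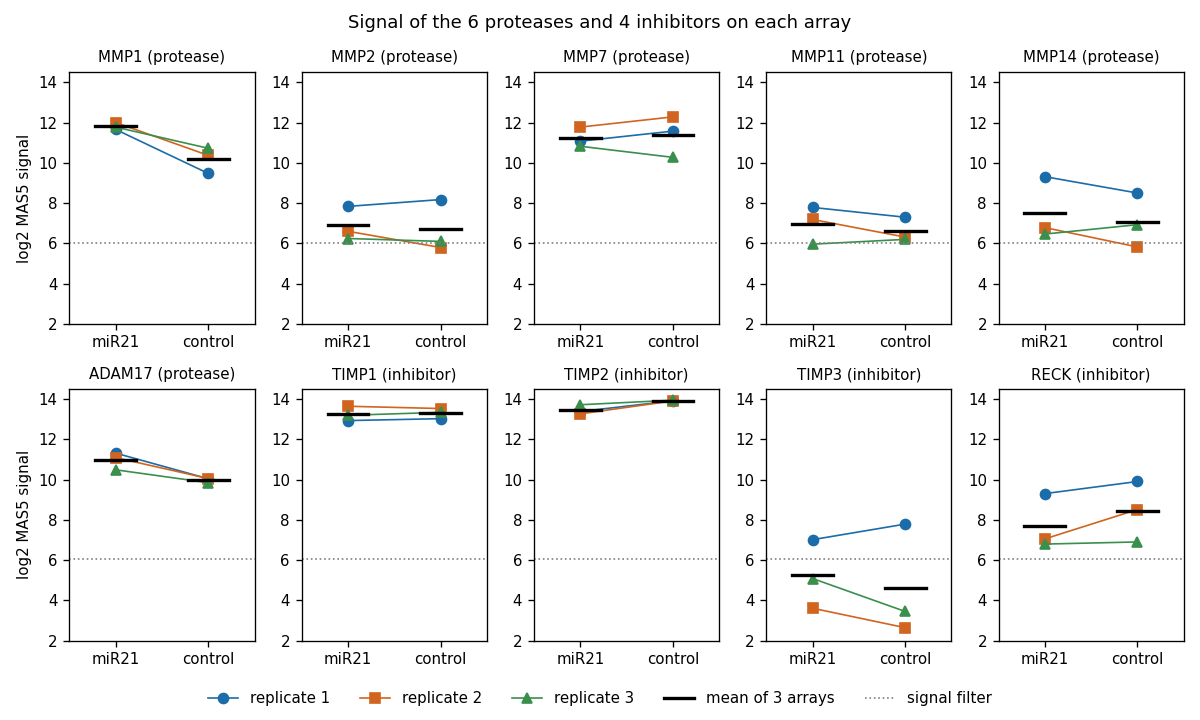
Log2 MAS5 signal (vertical axis) of the brightest probe set of each member on the miR21 arrays (left in each panel) and the control arrays (right). Lines join arrays of the same replicate number, black bars are means of 3 arrays, and the dotted line is the signal filter at 6.03; MMP1 and ADAM17 lie higher on all miR21 arrays, TIMP2 lies lower on all of them, and in RECK, TIMP3, MMP2 and MMP14 replicate 1 lies above the other replicates in both groups.

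MMP1 (chr11:102789919-102798160, GRCh38.p14), the interstitial collagenase that cuts fibrillar collagens, had the largest difference of the 10 members. Its single probe set had signals of 3243, 4118 and 3520 on the miR21 arrays of replicates 1, 2 and 3, against 711, 1326 and 1693 on the control arrays. All 3 miR21 arrays were thus brighter than all 3 control arrays, and the control arrays were more spread (SD of 0.65 on the log2 scale) than the miR21 arrays (0.18). The miR21 signal was 3.09 times that of control (log2 difference 1.63, SE 0.37, limma adjusted p = 0.9999). The block lowered the SE of this difference to 0.22, with an unadjusted p of 0.000100 and an adjusted p of 0.0711, which ranked 16 among the 12206 genes and missed the threshold. The differences within replicates 1, 2 and 3 were 2.19, 1.64 and 1.06. In absolute size the difference exceeded those of 99.2% of tested genes. MMP1 passed the block fit of limma without both arrays of number 1 (adjusted p = 0.00747, in a fit that called 0.483% of all genes) and without those of number 3 (1.64e-15, in a fit that called 32.8%), but not without those of number 2 (0.592). These fits rest on 2 pairs with 1 residual degree of freedom per gene.

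ADAM17 (chr2:9488486-9555830), the TNF-converting sheddase, was read by 3 probe sets, all above the filter and all brighter with miR21 in every replicate number. The brightest had signals of 2558, 2190 and 1439 on the miR21 arrays and 1056, 1067 and 923 on the control arrays, without overlap. The miR21 signal was 1.98 times that of control (log2 difference 0.99, SE 0.31, limma adjusted p = 0.9999; block SE 0.17, unadjusted p = 0.000543, adjusted p = 0.0858). Within replicates 1, 2 and 3 it differed by 1.28, 1.04 and 0.64. The second probe set (205746_s_at) had signals of 558, 374 and 338 on the miR21 arrays and 274, 269 and 220 on the control arrays, also without overlap, a log2 difference of 0.71. The third (205745_x_at) had 1499, 429 and 278 on the miR21 arrays and 804, 286 and 215 on the control arrays. Its groups overlapped, both arrays of replicate 1 were above all others, and its log2 difference was 0.62. Of the 9 within-replicate differences of ADAM17, 9 were above 0. Probe sets of 1 gene were read on the same arrays, so such counts, here and below, are not of independent observations. Fitted on all 41091 probe sets with the block, the 3 probe sets had adjusted p-values of 0.117, 0.267 and 0.273.

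MMP7, matrilysin, a small secreted protease made by epithelial cells, had no common direction. Its signals were 2165, 3516 and 1816 on the miR21 arrays and 3062, 4998 and 1239 on the control arrays. The groups overlapped, with lower values for miR21 in replicates 1 and 2 (differences of -0.50 and -0.51) and a higher value in replicate 3 (0.55), and the mean difference was -0.15 (SE 0.53, limma adjusted p = 0.9999). Without both arrays of number 3 it was -0.50 and passed the block fit (limma adjusted p = 0.00241), which called 32.8% of all genes. Without those of number 1 or 2 it was 0.022 and 0.026 and did not pass (adjusted p = 0.9996 and 0.988). In replicates 1 and 2 MMP7 thus lay below 0 and MMP1 above it.

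The gelatinase MMP2, the stromelysin MMP11 and the membrane-type protease MMP14, which activates the MMP2 proenzyme on the cell surface, were dim, and their values followed the replicate number. MMP14 had signals of 637, 110 and 88.0 on the miR21 arrays and 362, 56.4 and 122 on the control arrays, a log2 difference of 0.44 (SE 0.94, limma adjusted p = 0.9999). MMP2 had 229, 96.9 and 75.5 on the miR21 arrays and 289, 55.4 and 68.4 on the control arrays, a log2 difference of 0.20 (SE 0.77, limma adjusted p = 0.9999). MMP11 had 221, 146 and 62.1 on the miR21 arrays and 157, 79.3 and 73.3 on the control arrays, a log2 difference of 0.38 (SE 0.62, limma adjusted p = 0.9999). In these 3 genes the groups overlapped, and the brightest array of each group was that of replicate 1. The other 3 probe sets of MMP14 lay below the filter and differed by -0.94 to 0.09, those of MMP2 by -0.68 and 1.18, and those of MMP11 by 0.04 to 1.15. One dim MMP14 probe set (202828_s_at) was lower on all miR21 arrays, with signals of 6.50, 9.09 and 5.83, against 24.4, 10.8 and 9.27 on the control arrays, opposite in direction to the brightest one.

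TIMP2 (chr17:78852977-78925387), which inhibits MMPs and also takes part in MMP2 activation by MMP14, was read by 3 probe sets, which did not share a direction. The brightest (231579_s_at) had signals of 10738, 9904 and 13555 on the miR21 arrays, against 15512, 15477 and 15860.5 on the control arrays. All miR21 arrays were below all control arrays, and the control arrays hardly varied (SD of 0.02 on the log2 scale, against 0.24 on the miR21 arrays). Its log2 difference was -0.47 (SE 0.25, limma adjusted p = 0.9999; block SE 0.15, unadjusted p = 0.0138, adjusted p = 0.167). The second probe set (224560_at) had 7036, 10752 and 13374 on the miR21 arrays and 10857, 13720 and 14212 on the control arrays. It was lower in all 3 replicate numbers, with overlapping groups and a log2 difference of -0.36. The third (203167_at) had 1387, 1923 and 2042 on the miR21 arrays and 841, 1476 and 2456 on the control arrays, a log2 difference of 0.28. Which of the 3 stands for the whole message was not tested.

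RECK (chr9:36036913-36124455) was read by 5 probe sets, of which 4 were above the filter. The brightest (205407_at) had signals of 634, 133 and 111 on the miR21 arrays and 962, 366 and 120 on the control arrays. Each miR21 array was below the control array of its number, but the groups overlapped, since both arrays of replicate 1 were brighter than every other array. The log2 difference was -0.72 (SE 0.91, limma adjusted p = 0.9999; block SE 0.30, unadjusted p = 0.0457, adjusted p = 0.241), with -0.60, -1.46 and -0.11 in replicates 1, 2 and 3. Another probe set (1558115_at) had 286, 71.4 and 49.7 on the miR21 arrays and 312, 116 and 83.8 on the control arrays. It too was lower in all 3 replicates, with a log2 difference of -0.53. The others did not follow: 216153_x_at differed by -0.06, 1558116_x_at by 0.09 and the dim 216156_at by -0.43. Of the 15 within-replicate differences of RECK, 11 were below 0. Without both arrays of number 3 the brightest probe set differed by -1.03 (block fit, limma adjusted p = 0.000673, where 32.8% of all genes were called). Without those of number 1 it differed by -0.78 (adjusted p = 0.788) and without those of number 2 by -0.35 (0.755). Without control replicate 1 alone, which leaves its partner on the miR21 side, it differed by 0.010.

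TIMP3 (chr22:32801705-32863041), which binds to the matrix and inhibits ADAM17 as well as MMPs, had 4 probe sets, none above the filter. The brightest (201148_s_at) had signals of 129, 12.2 and 33.9 on the miR21 arrays and 221, 6.23 and 10.9 on the control arrays. Replicate 1 was the brightest in both groups and differed in the other direction from replicates 2 and 3, with differences of -0.77, 0.97 and 1.64. The 4 probe sets differed by -0.37 to 0.62, with overlapping groups in each, and 7 of their 12 within-replicate differences were above 0. No direction could be given for TIMP3 from these values.

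TIMP1, a secreted inhibitor of most MMPs, had signals of 7854, 12871 and 9423 on the miR21 arrays and 8389, 11898 and 10432 on the control arrays. The groups overlapped and the log2 difference was -0.04 (SE 0.29, limma adjusted p = 0.9999; block SE 0.13, adjusted p = 0.886), with differences between -0.15 and 0.11 within replicates.

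**Figure D2:**
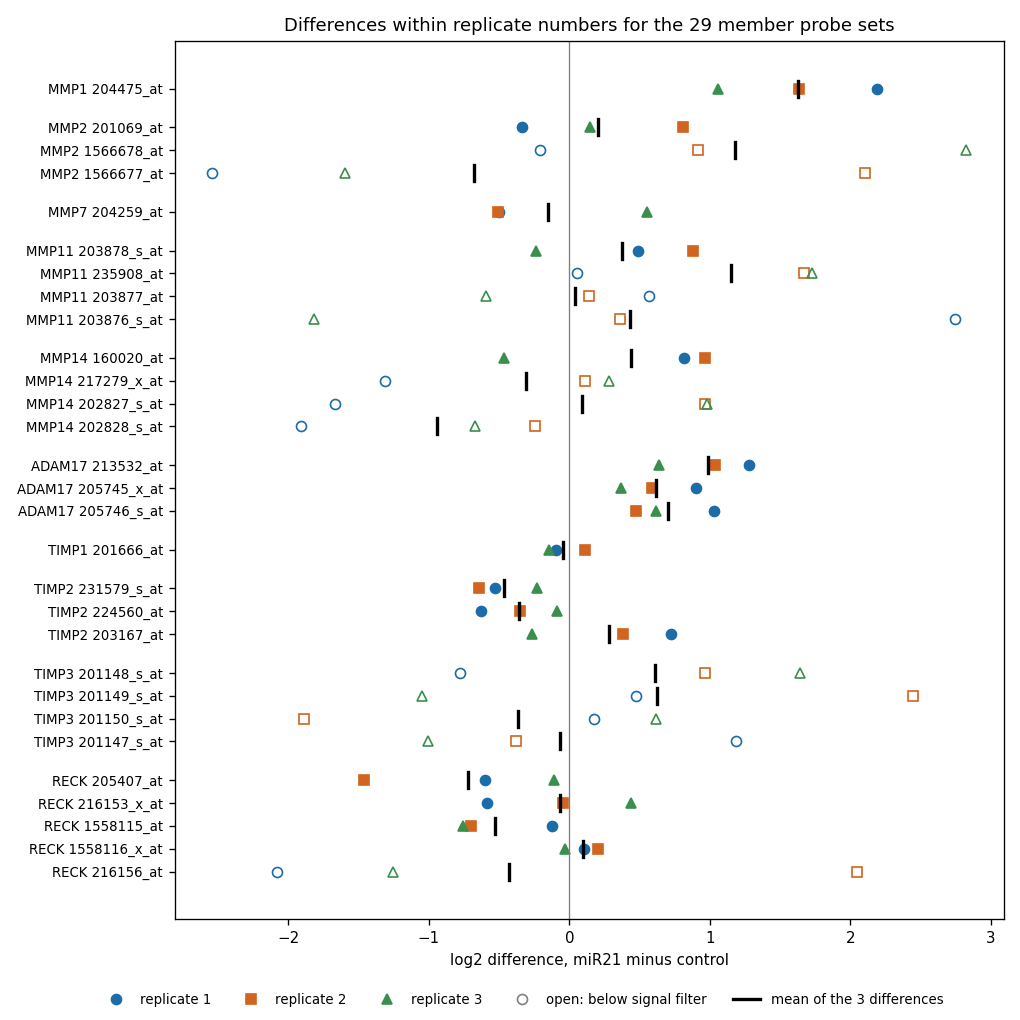
Log2 difference, miR21 minus control (horizontal axis), within each replicate number for the 29 member probe sets, grouped by gene; open symbols mark probe sets below the signal filter and black bars the mean of 3 differences. The 9 points of ADAM17 and the 3 of MMP1 lie right of 0, while dim probe sets, such as those of TIMP3, scatter to both sides.

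The median difference of the proteases lay above that of the tested inhibitors, although single members crossed: MMP7 (-0.15) lay below TIMP1 (-0.04), and the untested TIMP3 (0.61) lay above 4 of the 6 proteases. The 6 proteases had a median log2 difference of 0.41 (range -0.15 to 1.63) and the 3 tested inhibitors one of -0.47 (range -0.72 to -0.04), beside -0.01 for all tested genes. The protease median was above the inhibitor median by 1.18, 1.56 and 0.49 in replicates 1, 2 and 3. This is a description, with no test. Without MMP1 and ADAM17 the gap was smaller but kept its direction. The median of MMP2, MMP7, MMP11 and MMP14 was 0.29 over all arrays, beside -0.47 for the tested inhibitors. Within replicates 1, 2 and 3 it was 0.07, 0.84 and -0.05, beside inhibitor medians of -0.53, -0.64 and -0.15. In each of these remaining proteases the groups overlapped. Leaving out miR21 replicate 1 put the protease median at -0.053, leaving out control replicate 1 put it at 0.98, and that second omission put the inhibitor median at -0.18. Each leaves the other array of number 1 without its partner; with both arrays of number 1 left out the medians were 0.40 and -0.44.

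The groups did not overlap for 3 of the 9 tested members, beside 6.65% of all tested genes: MMP1 and ADAM17 were higher (3.38% of all genes) and TIMP2 was lower (3.27%). Higher values in all 3 replicates were seen in 2 members (20.3% of all genes), and lower values in 2, TIMP2 and RECK (20.9%). In the block fit 4 of the 9 had an unadjusted p under 0.05, beside 20.1% of all genes: MMP1 and ADAM17 on the higher side (9.81% of all genes), TIMP2 and RECK on the lower side (10.3%). Leaving out both arrays of number 3, the block fit called 6 of the 9 (MMP1, MMP7, MMP14, ADAM17, TIMP2 and RECK), beside 32.8% of all genes. Without number 1 it called 1, MMP1 (0.483% of all genes), and without number 2 it called 0, beside 0% (905 genes at an unadjusted p under 0.05). Over all 29 member probe sets, without the filter, the groups did not overlap for 5, beside 5.69% of all probe sets. Of these 29, 5 were higher in all 3 replicates (15.5% of all) and 5 lower (18.4%).

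The shift of replicate number 1 against numbers 2 and 3 was larger than the difference between precursors in 6 of the 10 members. Number 1 exceeded numbers 2 and 3, averaged over both groups, by 3.71 on the log2 scale in TIMP3, 2.41 in MMP14, 2.29 in RECK, 1.83 in MMP2 and 1.13 in MMP11, whose mean log2 signals were 4.93 to 8.08. The members with mean log2 signals of 10.5 to 13.7 shifted less, by 0.31 in ADAM17, 0.04 in MMP7, -0.06 in TIMP2, -0.45 in TIMP1 and -0.65 in MMP1. Across all tested genes the median of this shift was -0.04 and the 10th and 90th percentiles were -1.11 and 1.56. In MMP1, ADAM17, TIMP2 and MMP7 the difference between precursors was larger than the shift of number 1, but the MMP7 arrays of number 2 (3516 with miR21, 4998 with control) also lay above those of number 3 (1816 and 1239). The part of array brightness in these shifts was not tested.

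**Figure D3:**
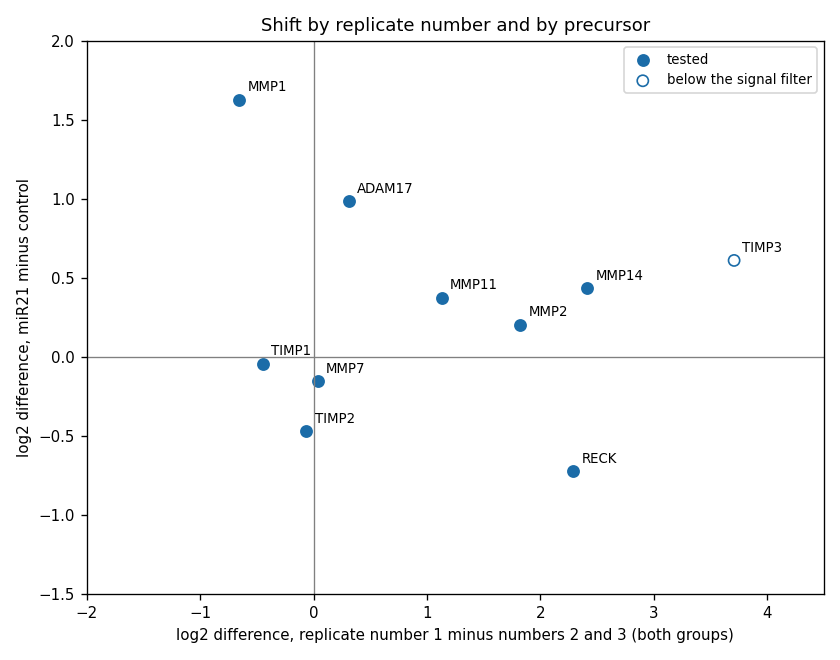
Log2 difference between replicate number 1 and numbers 2 and 3 over both groups (horizontal axis) against the log2 difference miR21 minus control (vertical axis) for the 10 members. MMP1 and ADAM17 stand high, at shifts by number of -0.65 and 0.31, and TIMP3, MMP14, RECK, MMP2 and MMP11 stand to the right, between 1.13 and 3.71.

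The arrays' profile of the reported targets was compared with every tested gene over the 6 arrays. Closest to RECK were DYNLT2B (Pearson r = 0.998), PTPN11 (0.996) and VEZT (0.996), and 320 genes had r over 0.95. Closest to TIMP3 were MAP1A (0.994), FAM83A (0.991) and UBE2NL (0.990), and 86 genes had r over 0.95. These correlations share the bright arrays of replicate 1 and are given as a description only.

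Other genes of the system were taken from 4 lists, and 0 genes of each passed limma with or without the block. Of 18 other MMPs 17 were on the array with a probe set of their own and 8 were tested, with a median log2 difference of 0.00 (2 lower and 1 higher at an unadjusted p under 0.05 in the block fit, beside 10.3% and 9.81% of all tested genes). MMP10, stromelysin 2, was brighter on all miR21 arrays, with signals of 976, 1141 and 1028, against 489, 332 and 867 on the control arrays (log2 difference 1.01, block SE 0.28, adjusted p = 0.146). MMP24, a membrane-type MMP, was dimmer on all of them, with 128, 165 and 177, against 274, 374 and 226 on the control arrays (-0.87, block SE 0.28, adjusted p = 0.169). MMP28, epilysin, differed by -0.91 with overlapping groups (block SE 0.38, adjusted p = 0.242).

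Of 14 other ADAM genes 8 were tested, with a median of 0.09 (2 lower and 2 higher by the same measure, with the same shares over all genes). ADAM10, another membrane-anchored sheddase, had signals of 13739, 4860 and 3595 on the miR21 arrays and 5255, 2967 and 3149 on the control arrays. This probe set was higher in each replicate with overlapping groups (log2 difference 0.76, block SE 0.22, adjusted p = 0.150). So was 202604_x_at, while 214895_s_at, also above the filter, was lower in replicate 3 (-0.24). ADAM19 differed by 0.63 (block SE 0.20, adjusted p = 0.168) and ADAM33 by -1.60 (block SE 0.49, adjusted p = 0.163).

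The ADAMTS proteases, secreted relatives that cut proteoglycans and procollagens, had the lowest median of the 4 lists. Of 19 listed genes 8 were tested, with a median of -0.71 (4 lower and 0 higher at an unadjusted p under 0.05 in the block fit, beside 10.3% and 9.81% of all tested genes), and within replicates 1, 2 and 3 it was -0.85, -0.37 and -0.20. ADAMTS1, an aggrecan- and versican-cutting enzyme, was dimmer on all miR21 arrays, with signals of 360, 245 and 957, against 4374, 1916 and 1162 on the control arrays (log2 difference -2.28, block SE 0.55, adjusted p = 0.128). The gap was wide in replicates 1 and 2 (-3.60 and -2.97) and narrow in replicate 3 (-0.28). Differences over all tested genes were also less spread in replicate 3 (SD of 0.43, against 0.66 and 0.71 in replicates 1 and 2). Another ADAMTS1 probe set above the filter (222486_s_at) differed by -2.46 with overlapping groups, and by 0.43 in replicate 3. ADAMTS5, an aggrecanase, had 202, 257 and 704 on the miR21 arrays and 1659, 2149 and 529 on the control arrays. Its log2 difference was -1.89 (block SE 0.62, adjusted p = 0.176), and replicate 3 went the other way on this probe set. The same held for 219935_at, also above the filter, with 0.19 in replicate 3. Another ADAMTS5 probe set above the filter (235368_at) was dimmer on all miR21 arrays, with -0.28 in replicate 3. ADAMTS15 differed by -0.50 (block SE 0.20, adjusted p = 0.224).

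Of 13 genes of activation, trafficking and clearance 10 were tested, with a median of 0.12 and 0 genes at an unadjusted p under 0.05 in the block fit. BSG, an inducer of MMP synthesis, differed by 0.46, the hyaluronan receptor gene CD44 by -0.32, and RHBDF1, an iRhom that is needed for ADAM17 trafficking, by 0.32, with block adjusted p-values of 0.258, 0.310 and 0.353.

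**Figure D4:**
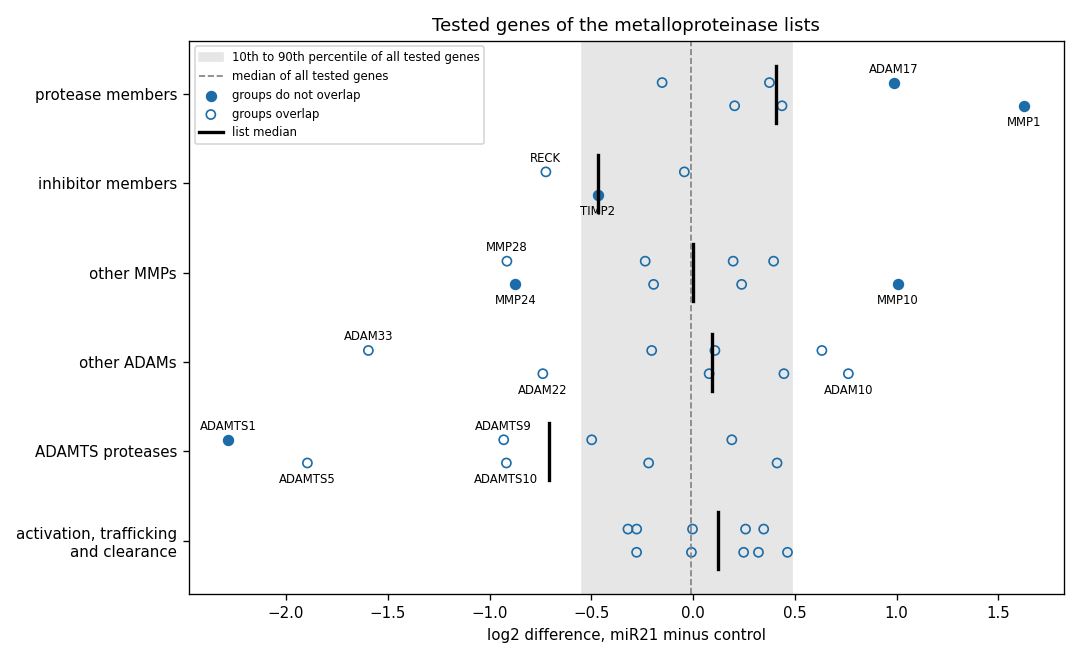
Log2 difference, miR21 minus control (horizontal axis), of the tested genes in each list; filled points mark genes whose groups do not overlap, black bars list medians, the grey band the 10th to 90th percentile of all tested genes (-0.55 to 0.49). MMP1 and ADAM17 lie right of the band with MMP10, ADAM10 and ADAM19, and ADAMTS1 and ADAMTS5 lie farthest left.

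Promoters are shown for MMP10 and MMP7, which lie in the same chromosome 11 cluster as MMP1. Of these, MMP10 lay higher on all miR21 arrays and MMP7 did not. Promoters of ADAM17 and RECK are also shown, since their brightest probe sets differed in opposite directions, in RECK with overlapping groups. The 250 bases before the start of each gene were read from the promoter table used here, made from RefSeq (GRCh38.p14), in which 7 of the 10 members matched. MMP1, MMP2 and TIMP2 had no entry in that table. Capitals mark the AP-1 motif TGANTCA, which reads alike on both strands, the motif GGGCGG, known as the GC box, and the motif TATAAA. Both strands were searched for each. No marked motifs overlap. They occur in 6.57%, 42.6% and 10.7% of the 35116 promoters of this length. The MMP10 window is chr11:102780629-102780878 (minus strand), the MMP7 window chr11:102530748-102530997 (minus), the ADAM17 window chr2:9555831-9556080 (minus) and the RECK window chr9:36036663-36036912 (plus).
MMP10 promoter: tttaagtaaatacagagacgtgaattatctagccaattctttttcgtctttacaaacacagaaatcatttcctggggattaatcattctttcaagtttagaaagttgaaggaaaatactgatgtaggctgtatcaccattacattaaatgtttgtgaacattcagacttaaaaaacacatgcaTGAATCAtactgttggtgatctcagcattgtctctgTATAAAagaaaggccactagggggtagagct
MMP7 promoter: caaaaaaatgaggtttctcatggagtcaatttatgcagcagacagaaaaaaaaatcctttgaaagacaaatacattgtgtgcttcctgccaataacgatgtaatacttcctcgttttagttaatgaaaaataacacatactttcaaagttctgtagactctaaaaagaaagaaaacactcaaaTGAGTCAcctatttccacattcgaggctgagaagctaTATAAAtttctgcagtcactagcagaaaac
ADAM17 promoter: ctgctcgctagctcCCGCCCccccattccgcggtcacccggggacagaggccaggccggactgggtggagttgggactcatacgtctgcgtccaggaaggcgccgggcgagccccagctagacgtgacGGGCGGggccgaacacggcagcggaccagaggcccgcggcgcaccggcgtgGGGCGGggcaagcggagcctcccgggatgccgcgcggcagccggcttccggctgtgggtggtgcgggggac
RECK promoter: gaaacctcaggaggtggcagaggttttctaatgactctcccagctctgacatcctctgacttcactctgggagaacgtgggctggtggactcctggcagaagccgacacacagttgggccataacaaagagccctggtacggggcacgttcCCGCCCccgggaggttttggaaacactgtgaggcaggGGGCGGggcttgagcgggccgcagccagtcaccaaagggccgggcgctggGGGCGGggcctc

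MMP10 and MMP7 each held 1 match to TGANTCA, 67 bases before the start, and 1 TATAAA, 31 and 30 bases before it. The match was TGAATCA in MMP10 and TGAGTCA in MMP7, which differ in the open middle base. The windows were poor in G and C, with 34.4% and 33.6%, against 75.6% in ADAM17, 63.6% in RECK and a median of 58.0% over all promoters. ADAM17 and RECK held 3 GC boxes each and neither other motif. The boxes began 236, 122 and 71 bases before the start in ADAM17 and 99, 62 and 12 bases before it in RECK. Of the other members with a promoter in the table, MMP11 held 3 GC boxes, MMP14 held 1, TIMP1 held 2 and TIMP3 held 5, and none of the 4 held an AP-1 motif or TATAAA. A match of letters is a description and not a measured binding site.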

How the data were processed

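Biotin-labelled amplified RNA was read on Affymetrix arrays, per the labels' protocols. MAS5 is named in the submitters' processing notes; its version and parameters were not given in the sources used here. As deposited, each value is a linear intensity signal above 0. Every array has a mean of 500 once 2% of values are trimmed from each end. Scaling of this kind hides a shift shared by most genes, and dim signals are noisy on the log scale. The number of arrays limits the precision.

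The table holds 54675 probe sets, 62 of them controls. Of the rest, 41091 carry 1 gene symbol in the platform annotation, 1801 carry several (not used) and 11721 carry none. All 10 members' Entrez identifiers matched the RefSeq table (GRCh38.p14), which gave the chromosomes. For a gene with several probe sets, the one with the highest mean on the log2 scale was used. Testing was limited to the 12206 genes at or above the median probe set. No pseudocount was added.

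Groups were compared on log2 signals with limma 3.58.1 in R 4.3.3 (a linear model with eBayes and trend), with Benjamini-Hochberg adjustment over all tested genes at 0.05. The steps were tested on simulated data. Replicate numbers, from the titles, were taken to pair the arrays because each same-number correlation was above 0.1. Arrays of numbers 2 and 3 also passed this rule across numbers (0.411 and 0.283), so it does not settle their pairing. An exact two-sided permutation test of 3 arrays against 3 cannot give a p below 0.1, so single values are not tested that way in the text. Named genes of the other lists were the 3 of smallest p in the block fit and any further genes without overlap. Members and lists were chosen with earlier results of these data known. The alternatives are given in the closing section.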

Additional observations from a re-analysis of the deposited data

How the results depend on the processing

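The results were recomputed with arrays centred on their median or quantile normalized, 16 added to each signal, a filter at the upper quartile or none, array weights, eBayes without the trend, the mean of all probe sets, every probe set on its own, the replicate block, the block without both arrays of 1 number, and each array left out. Filters, the variance trend and the block over all arrays cannot move the log2 difference of a gene's chosen probe set. Under the other settings (scaling, added signal, array weights, mean of probe sets, arrays left out) MMP1, ADAM17 and TIMP2 kept their direction, with log2 differences of 1.27 to 1.91, 0.77 to 1.22 and -0.60 to -0.18. Taken on its own, the TIMP2 probe set 203167_at had the opposite direction (0.28). limma called 0 genes in each setting without the block (95 to 1793 at an unadjusted p under 0.05). The block fits called 4 genes with all arrays, 59 without number 1, 0 without number 2 (905 at an unadjusted p under 0.05) and 4004 without number 3, of which 0, 1, 0 and 6 were members; with single arrays left out the counts were 0 for genes and 0 for members. The replicate block over all arrays changed no member's call.

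The protease median moved to 0.99 (upper quartile filter), 0.83 (array weights) and 0.77 (mean of probe sets). With the replicate block it was 0.79 with number 3 left out and 0.15 with number 2 left out. Without single arrays it ranged from -0.053 to 0.98. Under the upper quartile filter and the mean of probe sets, only MMP1, MMP7 and ADAM17 of the proteases were tested. The median there is the value of ADAM17, over fewer genes than in the main setting. The inhibitor median moved to -0.25 (no filter, and upper quartile filter), -0.18 (mean of probe sets) and -0.064 (every probe set). Without single arrays it ranged from -0.47 to -0.18. Its genes also changed: TIMP3 was included without the filter, and RECK was not tested under the upper quartile filter. Signs turned for TIMP1 at 0.046 (median centring) and 0.0092 (number 3 left out), MMP14 at -0.18 (mean of probe sets), MMP7 at 0.022 and 0.026 (number 1 or 2 left out) and MMP2 at -0.097 (number 2 left out). Without single arrays MMP2 ranged from -0.27 to 0.95, MMP7 from -0.70 to 0.30, MMP11 from -0.029 to 0.88, MMP14 from -0.46 to 1.15, TIMP1 from -0.24 to 0.12, TIMP3 from -0.38 to 2.19 and RECK from -1.52 to 0.010. The cause of these sign changes and ranges of single genes was not tested. Signal over background was not measured here.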

Other observations

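MMP1 lies in a cluster of 9 MMP genes on chromosome 11 (102520508 to 102955732, GRCh38.p14), of which 4 were bright enough to be tested. The neighbours MMP10 and MMP1 were brighter on all miR21 arrays (log2 differences of 1.01 and 1.63), while MMP7 (-0.15) and MMP12 (-0.24), the macrophage elastase gene, had overlapping groups. MMP12 had signals of 175, 86.1 and 117 on the miR21 arrays and 213, 136 and 99.5 on the control arrays. Below the filter, the collagenase gene MMP13 had signals of 14.0, 6.63 and 21.8 on the miR21 arrays and 6.61, 4.12 and 4.35 on the control arrays, without overlap, and the stromelysin gene MMP3 had 91.2, 12.9 and 7.99 on the miR21 arrays and 110, 18.5 and 1.75 on the control arrays. MMP8, MMP20 and MMP27 were also below it. This grouping by position, and the naming of MMP12, MMP13 and MMP3, were chosen after the values were seen, and no test was made of it.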
